A study of Mus musculus with 17 samples.

Results

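The genes described here are 7 parts of the machinery by which brain tissue senses corticosteroid stress hormones: the receptors Nr3c1 and Nr3c2, the hormone-activating enzyme Hsd11b1, the receptor co-chaperone Fkbp4, the corticotropin-releasing hormone receptor Crhr1 and the coactivators Ncoa1 and Ncoa2. They were chosen by name from the 78298 genes listed for every library, and all 7 passed the filter on low values (at least 1 TPM in at least 5 libraries), which 16153 genes passed. TPM is a level corrected for transcript length and scaled to the same total in each library. Their levels were compared across the groups of the study and set against Sgk1, a kinase gene that glucocorticoids switch on.

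The 17 libraries were made from poly(A) RNA of tissue labelled as locus coeruleus, in the brainstem, of male C57BL/6 mice, whose age the labels do not give. Mice of the first group received vindeburnol (5 libraries), a compound related to vincamine, and mice of the second received VB-127 (6 libraries), which the labels call a derivative of vindeburnol. Each was given in water by gavage, in a volume of 0.1 ml, at a daily dose of 20 mg/kg over 5 days, and the tissue was collected 24 hours later. The 6 control libraries came from untreated mice, so an effect of the gavage and an effect of a compound cannot be told apart. The study was randomized, and all groups shared the strain and the housing.

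Glucocorticoids cross into brain cells and bind the glucocorticoid receptor (Nr3c1) or the mineralocorticoid receptor (Nr3c2), which holds the same hormones with higher affinity. The unbound receptors sit in a complex with heat shock protein 90 and co-chaperones, among which Fkbp4 favours transport into the nucleus and Fkbp5 lowers hormone binding. In the nucleus the receptors bind response elements in DNA and recruit coactivators of the p160 family, such as Ncoa1 and Ncoa2. Hsd11b1 regenerates active corticosterone from its inert form within the cell, and Hsd11b2 runs the reaction the other way. Crhr1 stands upstream, since corticotropin-releasing hormone drives the pituitary axis that ends in hormone release and also acts on noradrenergic neurons directly.

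The response element read by both receptors is shown because the relation to Sgk1 is one of the questions asked of these genes. RefSeq start windows (GRCm38.p6) were searched over the 250 bases upstream of each start, on both strands, for a palindrome of GAACA and TGTTC with any 3 bases between them, and for the shorter motif TGTTCT, which can overlap it. The palindrome was found in 0.0396% of 32851 windows and the shorter motif in 16.1%. Of 6 Sgk1 windows, 1 held the palindrome, between 188 and 176 bases upstream of that start, at chr10:21993640-21993889 on the plus strand, with the match in capitals.
Sgk1 upstream: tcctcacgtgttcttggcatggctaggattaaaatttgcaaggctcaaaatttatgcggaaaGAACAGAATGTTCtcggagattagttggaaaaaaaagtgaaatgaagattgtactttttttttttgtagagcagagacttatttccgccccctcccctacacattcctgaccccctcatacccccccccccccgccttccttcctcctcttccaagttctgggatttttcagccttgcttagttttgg
The shorter motif was found in 3 of the 6 Sgk1 windows. Of the genes described here 5 had a window in the table, and neither motif was found in any of the 5. Among 15 other genes that glucocorticoids induce, 14 had a window, 2 of them (Sult1a1 and Tsc22d3) held the shorter motif and 0 held the palindrome. A match is a description of letters, and these windows say nothing of elements that lie elsewhere.

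Read depth is unknown, since TPM does not keep it, and 21016 to 26993 genes were above 0 in a library. The defining transcripts of the labelled tissue were low or absent in most libraries. Dbh, which makes noradrenaline, did not exceed 1.72 TPM in a vindeburnol library or 2.36 TPM in a VB-127 library, and spanned 0.290 to 18.9 TPM in controls. Its list of noradrenergic markers has 6 genes, 3 of them tested. Their sum spanned 30.3 to 100 TPM after vindeburnol, 37.6 to 157 TPM after VB-127 and 55.2 to 120 TPM in controls. After either compound Dbh was a small part of these sums. The list also holds Th, a marker on the dopaminergic list too, so the sums do not stand for noradrenergic neurons alone. Bc1, a short neuronal noncoding RNA, took 16.1% to 35.3% of the TPM total, and the other genes share what remains. The labels do not say whether the libraries of a group came from separate animals, so p-values measure the spread between these libraries.

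Over the 17 libraries Fkbp4 stood far above the other genes, with a median of 148 TPM, and its lowest library exceeded the highest library of every other gene in the group. It was followed by Ncoa1 at 23.0 TPM, Hsd11b1 at 20.5 TPM, Nr3c1 at 17.2 TPM, Ncoa2 at 12.7 TPM, Crhr1 at 11.5 TPM and Nr3c2 at 7.65 TPM. Ncoa1 and Hsd11b1 could not be ordered, since Ncoa1 was the higher in 9 of 17 libraries, and the same held for Ncoa2 and Crhr1, with Ncoa2 higher in 9 of 17. Nr3c1 was above Ncoa2 in 17 of 17 libraries and Crhr1 above Nr3c2 in 16 of 17. Fkbp4 also varied least, with a log2 standard deviation of 0.10 that 98.6% of tested genes exceeded. The other 6 genes lay between 0.22 and 0.38, around the median of 0.26 for all tested genes, and Sgk1, at 0.86, was exceeded by 1.65% of genes.

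**Figure D1:**
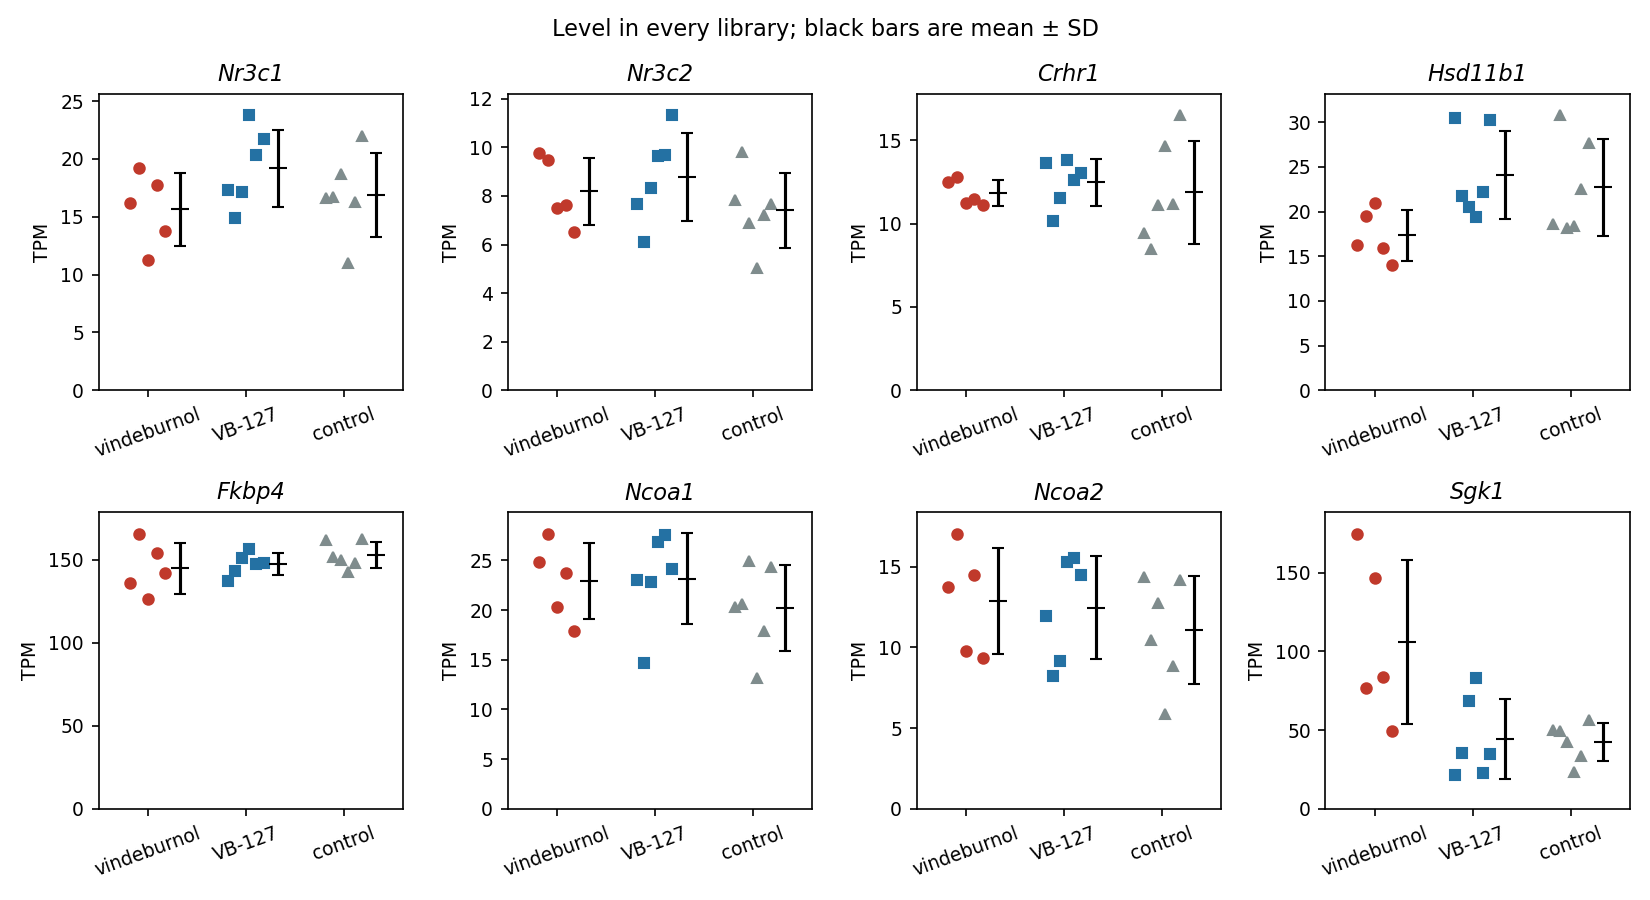
TPM of the 7 genes and of Sgk1 in every library, by group, from a linear axis that starts at 0; each symbol is 1 library, and black bars are the mean ± SD (n = 5, 6 and 6). The groups overlap for each of the 8 genes, Hsd11b1 is below the control mean in 5 of 5 vindeburnol libraries, and Sgk1 reaches 175 and 146 TPM in vindeburnol replicates 1 and 3.

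None of the 7 genes passed the test in any comparison, in limma with Benjamini-Hochberg adjustment over all genes tested. Between vindeburnol and control libraries 0 of 16153 genes were called (0%), with 1319 (8.17%) at an unadjusted p under 0.05. Between VB-127 and control libraries 1 was called (0.00619%), with 1648 (10.2%) at that unadjusted p. Between the compounds 0 were called (0%), with 546 (3.38%) at that unadjusted p. The unadjusted p was under 0.05 for Hsd11b1 alone among the 7, against both controls and VB-127. Most genes lay higher than controls after either compound, with median log2 differences of 0.08 after vindeburnol and 0.11 after VB-127. Median-ratio scaling brought these medians to 0.00 and 0.01, so differences from controls are read against them.

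**Figure D2:**
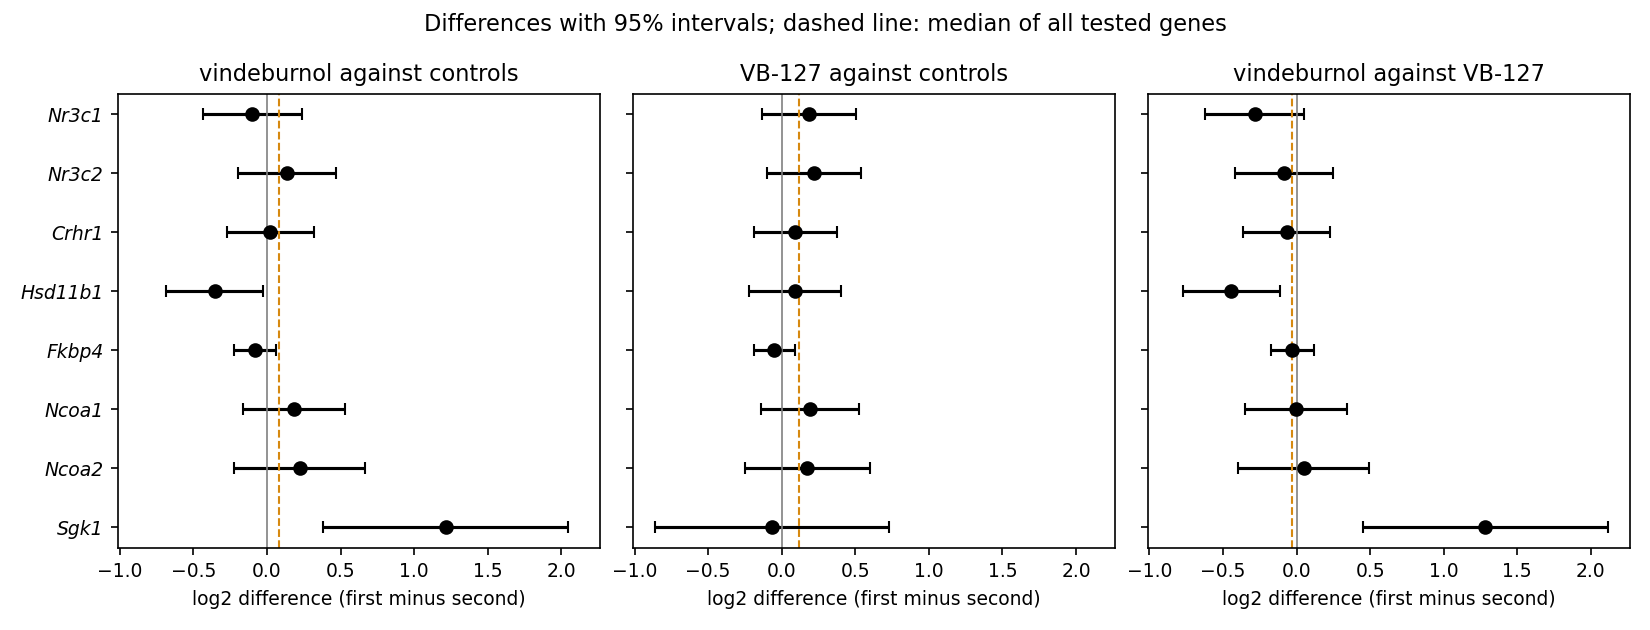
Log2 difference of each gene in the 3 comparisons, the first group minus the second, on the log2(TPM + 1) scale; points are limma estimates, bars are 95% intervals, and the dashed line is the median of all tested genes. For the 7 genes the interval leaves out 0 only for Hsd11b1, after vindeburnol against controls and against VB-127; the points of Crhr1 against controls, and of Hsd11b1 for VB-127 against controls, change sign under median-ratio scaling and quantile normalization, as does that of Ncoa1 between the compounds, and that of Fkbp4 between the compounds under median-ratio scaling.

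Hsd11b1, the enzyme that regenerates active corticosterone, had the smallest p of the 7 genes for vindeburnol against controls and between the compounds. It was at 16.3, 19.5, 21.0, 15.9 and 13.98 TPM in the vindeburnol libraries, replicates 1 to 5. It was at 19.4 to 30.5 TPM after VB-127 (median 21.9) and at 18.2 to 30.8 TPM in controls (median 20.6). All 5 vindeburnol libraries were below the mean of either other group, and 3 were below the lowest library of each, yet the ranges overlapped. The means were 17.3 ± 2.84 TPM after vindeburnol (SD, n = 5), 24.1 ± 4.96 TPM after VB-127 (SD, n = 6) and 22.7 ± 5.40 TPM in controls (SD, n = 6). Vindeburnol against controls gave a log2 difference of -0.35 (SE 0.16, 95% interval -0.68 to -0.02, unadjusted p 0.0364, adjusted p 0.583). Among all genes tested 197 (1.22%) were lower at that unadjusted threshold, and 671 under median-ratio scaling. Vindeburnol against VB-127 gave -0.44 (95% interval -0.77 to -0.12, unadjusted p 0.0107, adjusted p 1.00), and 402 genes (2.49%) were lower at that threshold. VB-127 against controls gave 0.09 (95% interval -0.22 to 0.40, adjusted p 0.828), which turned to -0.03 under median-ratio scaling. Each pair of these comparisons shares a group of libraries, so they are not independent of each other.

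Endothelial markers were lower in value in the same vindeburnol libraries. Against VB-127, 5 of 5 were lower in value (median log2 difference -0.40), and 3 of them (Tek, Slco1a4 and Cldn5) were lower at an unadjusted p under 0.05, with log2 differences of -0.60, -0.47 and -0.40, as were Rgs5 of pericytes (-0.44) and P2ry12 of microglia (-0.43). The adjusted p was 1.00 for each, and 2.49% of all genes tested were lower at that unadjusted p. Microglial markers were split, with 3 of 5 lower in value (median -0.24), and so were those of pericytes and meningeal fibroblasts, with 2 of 6 lower (median 0.03) and of astrocytes, with 3 of 5 lower (median -0.18). Oligodendrocyte markers were lower in value in 5 of 5 (median -0.18), 1 of them at an unadjusted p under 0.05. Dopaminergic markers were lower in 5 of 5 (median -0.47) and noradrenergic markers in 3 of 3 tested (median -0.43), lists that share Th. Of the dopaminergic and noradrenergic markers, 0 had an unadjusted p under 0.05 between the compounds. Against controls, 4 of 5 endothelial markers (median -0.33, 1 at that p) and 3 of 5 oligodendrocyte markers (median -0.06) were lower in value after vindeburnol. So were 4 of 5 dopaminergic (median -0.16, 1 at that p) and 3 of 3 tested noradrenergic markers (median -0.87, 2 at that p). After VB-127 2 of 3 tested noradrenergic markers were lower than in controls (median -0.76, 2 at that p). Of all genes tested, 1.22% and 0.532% were lower at that p after vindeburnol and VB-127, and 0 markers were called. Summed endothelial markers spanned 70.6 to 108 TPM after vindeburnol, 99.6 to 132 TPM after VB-127 and 90.5 to 151 TPM in controls. Summed oligodendrocyte markers spanned 6279 to 7576 TPM after vindeburnol, 7009 to 9200 TPM after VB-127 and 5724 to 9595 TPM in controls. The sums of microglial markers spanned 73.0 to 98.7 TPM after vindeburnol, 73.0 to 100 TPM after VB-127 and 68.5 to 103 TPM in controls, and those of pericytes and meningeal fibroblasts 46.1 to 76.3 TPM after vindeburnol, 50.4 to 88.7 TPM after VB-127 and 38.8 to 76.8 TPM in controls. No marker of the endothelial, oligodendrocyte or microglial lists was at 0 in any library. In bulk tissue, fewer cells of a type and less RNA per cell cannot be told apart, and the part of these markers in the Hsd11b1 values was not tested.

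Across all 17 libraries the genes most like Hsd11b1 were Cd9 (r = 0.83, permutation p 4e-05; rho 0.88, p 2e-05), Aspa (r = 0.83, p 4e-05; rho 0.83, p 9e-05) and Pmp22 (r = 0.78, p 0.00028; rho 0.72, p 0.00148). Cd9 encodes a membrane tetraspanin, Aspa the enzyme that splits N-acetylaspartate in oligodendrocytes, and Pmp22 a myelin protein. Over all 16152 partner genes 0 passed adjustment (0%; adjusted p 0.323, 0.323 and 1.00 for these). Leaving out the 2 libraries farthest from the Hsd11b1 median gave r of 0.80, 0.72 and 0.84. The markers of glia went both ways with Hsd11b1. Mbp of myelin had an r of 0.66 with Hsd11b1 (p 0.00366; rho 0.69, p 0.00297) and Aqp4 of astrocytes 0.59 (p 0.0132; rho 0.51, p 0.0389). They were 0.60 and 0.62 without those 2 libraries. Aldh1l1 of astrocytes had an r of -0.52 (p 0.0312; rho -0.38, p 0.133; -0.59 without those 2), and Slc1a3 of astrocytes and Tmem119 of microglia of -0.02 each. The erythrocyte markers Hba-a1, Hbb-bt and Alas2 had r of -0.54 each with Hsd11b1 (p 0.024, 0.0253 and 0.0267; rho -0.51, -0.43 and -0.41, p 0.0393, 0.0879 and 0.100), and -0.45, -0.46 and -0.45 without those 2 libraries. None of these markers passed adjustment. Against controls, erythrocyte markers were higher in value in 5 of 5 after vindeburnol, 3 of them at an unadjusted p under 0.05 (median log2 difference 0.49, 0 called). After VB-127 they were higher in 5 of 5 too, 2 of them at that p (median 0.40, 0 called). Of all genes tested, 6.95% and 9.67% were higher at that p in these comparisons. Under median-ratio scaling 0 of 5 markers passed it in either. Their sums spanned 1411 to 2525 TPM after vindeburnol, 1539 to 2346 TPM after VB-127 and 896 to 2042 TPM in controls, and their part in the Hsd11b1 values was not tested.

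The partner enzymes of Hsd11b1 were far apart in level. Hsd11b2, which inactivates corticosterone, was listed at 0 in 11 of 17 libraries and reached at most 0.199 TPM, so Hsd11b1 exceeded it in each library. H6pd, which supplies the cofactor that lets Hsd11b1 work in the activating direction, was at 3.62 ± 1.09 TPM after vindeburnol (SD, n = 5), 3.00 ± 0.478 TPM after VB-127 (SD, n = 6) and 2.87 ± 0.901 TPM in controls (SD, n = 6). Of 15 listed genes of corticosteroid synthesis, metabolism and transport, 6 passed the filter on low values, and 0 of these had an unadjusted p under 0.05 in any of the 3 comparisons. The adrenal enzyme gene Cyp11b1 and the corticosteroid-binding globulin gene Serpina6 were listed at 0 in 17 of 17 libraries. Srd5a1, which reduces steroid hormones, and H6pd had the smallest p for vindeburnol against controls, with log2 differences of 0.26 and 0.26 (adjusted p 0.697 and 0.707). For VB-127 against controls they were Cyp11a1, which cleaves cholesterol to start steroid synthesis, at 0.33 (adjusted p 0.550) and Srd5a1 at 0.17 (adjusted p 0.683). Between the compounds Cyp11a1 and the drug efflux pump gene Abcb1a had log2 differences of -0.27 and -0.21 (adjusted p 1.00 each).

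Nr3c1, the glucocorticoid receptor, was at 16.2, 19.2, 11.2, 17.7 and 13.8 TPM in vindeburnol replicates 1 to 5, at 14.9 to 23.8 TPM after VB-127 (median 18.8) and at 10.99 to 22.0 TPM in controls (median 16.7). The groups overlapped, with the lowest values in vindeburnol replicate 3 and control replicate 4. The log2 difference from controls was -0.10 after vindeburnol (95% interval -0.44 to 0.24, adjusted p 0.899) and 0.19 after VB-127 (-0.13 to 0.51, adjusted p 0.654). Between the compounds it was -0.29 (-0.62 to 0.05, unadjusted p 0.0914, adjusted p 1.00), and 0 of 5 vindeburnol libraries were above the VB-127 mean.

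Nr3c2, the mineralocorticoid receptor, was at 9.78, 9.49, 7.52, 7.62 and 6.51 TPM after vindeburnol, at 6.11 to 11.3 TPM after VB-127 (median 8.98) and at 5.02 to 9.80 TPM in controls (median 7.43). The groups overlapped here too, with the highest library in VB-127 and the lowest in control replicate 4. Its log2 difference from controls was 0.14 after vindeburnol (95% interval -0.20 to 0.47, adjusted p 0.850) and 0.22 after VB-127 (-0.10 to 0.54, adjusted p 0.594), and between the compounds it was -0.08 (-0.42 to 0.25, adjusted p 1.00). The ratio of Nr3c1 to Nr3c2, which takes any factor shared by all genes of a library out of both, was 1.92 ± 0.341 after vindeburnol (SD, n = 5), 2.21 ± 0.218 after VB-127 (SD, n = 6) and 2.31 ± 0.423 in controls (SD, n = 6). The lowest ratios, 1.49 and 1.66, came from vindeburnol replicates 3 and 1, the 2 libraries with the highest Sgk1, and the next lowest, 1.71, from control replicate 2. The highest, 2.88 and 2.70, came from control replicates 6 and 3. The glucocorticoid receptor transcript was the more abundant in 17 of 17 libraries.

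Fkbp4, the co-chaperone that links the receptor complex to transport, was at 136, 166, 126, 154 and 142 TPM after vindeburnol, at 137 to 157 TPM after VB-127 (median 148) and at 143 to 163 TPM in controls (median 151). The vindeburnol libraries held both the highest and the lowest values of the 17, and the groups overlapped. As deposited, differences were small, at -0.08 from controls after vindeburnol (95% interval -0.23 to 0.06, adjusted p 0.770), -0.05 after VB-127 (-0.19 to 0.09, adjusted p 0.778) and -0.03 between the compounds (-0.18 to 0.12, adjusted p 1.00). The last turned to 0.01 under median-ratio scaling. Over 30 alternatives the difference from controls ran from -0.17 to 0.0099 after vindeburnol, with an unadjusted limma p under 0.05 in 3. After VB-127 it ran from -0.17 to -0.0070, with such a p in 2 of 30. The ratio of Fkbp4 to Fkbp5, its hormone-induced counterpart, was 5.13, 12.1, 4.58, 9.67 and 12.8 after vindeburnol, 10.2 to 15.3 after VB-127 (median 12.95) and 9.19 to 17.8 in controls (median 12.1). Vindeburnol replicates 1 and 3 were below every other library. Fkbp5 reached 27.6 TPM after vindeburnol, against at most 17.7 TPM in controls.

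Of 17 other chaperones and co-chaperones of the receptor complex, all tested, 0 were called. An unadjusted p under 0.05 was found for 1 against controls after vindeburnol, for 2 after VB-127 and for 1 between the compounds. Of all genes tested 8.17%, 10.2% and 3.38% had such a p. Median log2 differences of this list were -0.04, 0.02 and -0.03, against 0.08, 0.11 and -0.03 for all genes tested. Under median-ratio scaling 5 of 17 had an unadjusted p under 0.05 after vindeburnol, where 4 were higher and 13 lower in value (8 and 9 as deposited). After VB-127 it was 5 of 17, where 3 were higher and 14 lower (10 and 7 as deposited). On that scale 1397 and 1198 of all 16153 genes had such a p. Under quantile normalization 1 of 17 and 3 of 17 had it, against 1430 and 1229 of all genes. Fkbp5 had the smallest p after vindeburnol, with log2 differences of 0.48 against controls (adjusted p 0.595) and 0.57 against VB-127 (adjusted p 1.00). The next was the importin gene Ipo13, which carries the receptor into the nucleus, at 0.24 from controls after vindeburnol (adjusted p 0.609) and 0.36 after VB-127 (adjusted p 0.461). Stub1, a ubiquitin ligase that works with heat shock proteins, was at 0.17 for VB-127 against controls (adjusted p 0.470). Hsp90ab1, a heat shock protein 90, was at -0.10 between the compounds (adjusted p 1.00). By likeness over 17 libraries, the genes nearest to Fkbp4 were Ahsa1, the activator of the heat shock protein 90 cycle (r = 0.89, permutation p 2e-05; rho 0.86, p 4e-05), the serotonin receptor gene Htr1a (r = 0.87, p 1e-05, the smallest these permutations can give; rho 0.76, p 0.00052) and the sorting nexin gene Snx16 (r = 0.86, p 2e-05; rho 0.80, p 0.00026). Their adjusted p was 0.0538 and 0 of 16152 genes (0%) passed. Without the 2 libraries farthest from the Fkbp4 median r was 0.87, 0.77 and 0.70. With each library taken as its deviation from its group mean r was 0.90, 0.86 and 0.86, and 46 of 16152 genes passed adjustment.

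Crhr1, the receptor for corticotropin-releasing hormone, was at 12.5, 12.8, 11.2, 11.5 and 11.1 TPM after vindeburnol, at 10.2 to 13.8 TPM after VB-127 (median 12.8) and at 8.46 to 16.5 TPM in controls (median 11.1). Both the lowest and the highest of the 17 values were controls, and the vindeburnol libraries, with an SD of 0.780 TPM, lay inside the control range. Log2 differences from controls were 0.02 after vindeburnol (95% interval -0.27 to 0.32, adjusted p 0.975) and 0.09 after VB-127 (-0.19 to 0.37, adjusted p 0.804), and the difference was -0.07 between the compounds (-0.36 to 0.23, adjusted p 1.00). The differences from controls turned to -0.06 and -0.02 under median-ratio scaling. The nearest genes were Spag4, Acrbp and Adgra2 (r = 0.86, 0.82 and 0.82; permutation p 1e-05, 8e-05 and 7e-05; rho 0.80, 0.67 and 0.78 with p 0.00022, 0.00363 and 0.00037), none past adjustment over 16152 genes (0% called; adjusted p 0.0808, 0.162 and 0.162). Without the 2 farthest libraries r was 0.74, 0.68 and 0.79. Of the cell type markers Pdgfrb of pericytes had an r of 0.63 with Crhr1 (p 0.00689; rho 0.51, p 0.0392; adjusted p 0.465) and Zic1 one of 0.56 (p 0.0205; rho 0.68, p 0.00336; adjusted p 0.490), which were 0.45 and 0.70 without those libraries. Their part in the Crhr1 values was not tested.

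Of 13 other peptides and receptors of the pituitary and adrenal stress axis, 7 were tested and 0 were called. After vindeburnol 3 had an unadjusted p under 0.05 against controls, 1 higher (Adcyap1r1, at 0.25, adjusted p 0.601; 6.95% of all genes were higher so) and 2 lower (1.22% of all genes), and the list's median log2 difference was -0.31 against 0.08 for all genes. The lower ones were Crhbp, which binds and sequesters corticotropin-releasing hormone, at -0.46 (adjusted p 0.555), and Crhr2, the second receptor of that peptide family, at -0.46 (adjusted p 0.594). Crhbp was at 4.34 ± 1.73 TPM after vindeburnol (SD, n = 5) and 6.18 ± 1.504 TPM in controls (SD, n = 6), and Crhr2, near the filter, at 0.422 ± 0.260 TPM after vindeburnol and 0.960 ± 0.372 TPM in controls. For VB-127 against controls, where 0 of 7 had an unadjusted p under 0.05, Ucn (urocortin, a ligand of both receptors) and Adcyap1r1 (the receptor of the stress peptide PACAP) had the smallest p, at 0.98 (adjusted p 0.606) and 0.14 (adjusted p 0.636). Ucn was at 25.7 to 42.0 TPM after vindeburnol, 23.8 to 42.0 TPM after VB-127 and 0 to 38.2 TPM in controls, where 1 library was listed at 0. Between the compounds Crhr2 and Adcyap1, the gene of PACAP itself, were at -0.44 and -0.24 (adjusted p 1.00 each).

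Ncoa1, also called SRC-1, was at 24.9, 27.7, 20.3, 23.8 and 17.9 TPM after vindeburnol, at 14.7 to 27.6 TPM after VB-127 (median 23.6) and at 13.2 to 24.97 TPM in controls (median 20.4). Ncoa2, its relative SRC-2, was at 13.7, 17.03, 9.76, 14.5 and 9.36 TPM after vindeburnol, at 8.21 to 15.5 TPM after VB-127 (median 13.2) and at 5.87 to 14.4 TPM in controls (median 11.6). For both genes the groups overlapped and the lowest library was control replicate 4. Against controls Ncoa1 had log2 differences of 0.19 after vindeburnol (95% interval -0.16 to 0.53, adjusted p 0.782) and 0.19 after VB-127 (-0.14 to 0.52, adjusted p 0.654). Ncoa2 had 0.22 (-0.22 to 0.67, adjusted p 0.806) and 0.17 (-0.25 to 0.60, adjusted p 0.754). Between the compounds the differences were -0.01 for Ncoa1 (-0.35 to 0.34) and 0.05 for Ncoa2 (-0.40 to 0.50), with adjusted p of 1.00, and that of Ncoa1 turned to 0.03 under median-ratio scaling. The ratio of Ncoa1 to Ncoa2 was 1.81 ± 0.193 after vindeburnol (SD, n = 5), 1.90 ± 0.302 after VB-127 (SD, n = 6) and 1.89 ± 0.289 in controls (SD, n = 6).

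Of 20 other coactivators and corepressors of nuclear receptors, all tested, 0 were called. After vindeburnol 5 were higher than in controls at an unadjusted p under 0.05 (6.95% of all genes tested were), among them Trim28, Crebbp, Carm1 and Hdac3. After VB-127 6 were higher (9.67% of all genes), among them these 4 and Ncoa3. Genes beyond the first pair were named after their values were seen. Between the compounds 1, Ube3a, was lower (2.49% of all genes). In value 17 of 20 were higher after vindeburnol and 19 of 20 after VB-127, but 11 and 16 of 20 under median-ratio scaling. Trim28, a corepressor scaffold that also acts with the glucocorticoid receptor, had the smallest p of the list against controls, with log2 differences of 0.50 after vindeburnol (adjusted p 0.319) and 0.41 after VB-127 (adjusted p 0.454). Vindeburnol libraries held 77.6 to 103 TPM of it, VB-127 libraries 70.5 to 89.1 TPM and controls 51.1 to 72.0 TPM. Its small p and the gap between the first and last ranges come from the same values, and such gaps were not counted over all genes. Crebbp, a histone acetyltransferase that p160 coactivators recruit, was at 0.43 (adjusted p 0.541) and 0.61 (adjusted p 0.454) in those comparisons. Both sets of differences use the same control libraries. Between the compounds the ubiquitin ligase gene Ube3a and Ncoa3, another p160 gene, had the smallest p, at -0.38 and -0.26 (adjusted p 1.00 each).

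Among 10 other steroid and orphan nuclear receptors, 9 were tested, 0 were called, and 1 had an unadjusted p under 0.05, for VB-127 against controls. This was Nr4a1, an activity-induced orphan receptor, at 9.94 ± 1.65 TPM after VB-127 (SD, n = 6) and 6.86 ± 1.82 TPM in controls (SD, n = 6), a log2 difference of 0.50 (adjusted p 0.461). For vindeburnol against controls Nr2f2 and Nr4a1 led, at 0.36 and 0.23 (adjusted p 0.754 and 0.755), Nr2f2 stood at 0.35 for VB-127 against controls (adjusted p 0.634), and between the compounds Nr4a1 and Nr2f1 were at -0.27 and -0.19 (adjusted p 1.00 each). The progesterone receptor gene Pgr was at 1.31 to 4.88 TPM over the 17 libraries, below Nr3c2 in median.

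Sgk1 differed far more between libraries than its receptors did. It was at 175, 76.7, 146, 83.5 and 49.3 TPM in vindeburnol replicates 1 to 5, at 21.3 to 83.0 TPM after VB-127 (median 34.9) and at 23.1 to 56.6 TPM in controls (median 45.7). In 4 of 5 vindeburnol libraries it exceeded the highest control. Its log2 difference from controls was 1.22 (SE 0.39, 95% interval 0.38 to 2.05, unadjusted p 0.00709, adjusted p 0.507). It was -0.07 for VB-127 against controls (adjusted p 0.950) and 1.28 for vindeburnol against VB-127 (0.45 to 2.12, adjusted p 1.00). Across libraries Sgk1 spanned 8.21-fold from lowest to highest, Nr3c1 2.16-fold, Nr3c2 2.25-fold, Ncoa2 2.90-fold and Fkbp4 1.31-fold.

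No receptor or cofactor passed the test of a relation to Sgk1 across libraries. Correlations were taken on log2(TPM + 1) over 17 libraries with two-sided permutation p-values, adjusted over the 16152 genes set against Sgk1, of which 0 passed (0%) and 891 (5.52%) had an unadjusted p under 0.05. Of the 7 genes 0 were in that number. Hsd11b1 had the lowest value, r = -0.40 (p 0.111; rho -0.47, p 0.0597). Vindeburnol libraries exceeded every control in Sgk1, except replicate 5. Except for replicates 2 and 3, they were below every library of the other groups in Hsd11b1. Replicate 5 had the lowest Hsd11b1 of the 17 libraries, 13.98 TPM, with Sgk1 at 49.3 TPM, inside the control range. With each library taken as its deviation from its group mean, r of Hsd11b1 with Sgk1 was -0.00 (p 0.993). Nr3c1 had r = -0.04 (p 0.875; rho 0.01, p 0.965) and Nr3c2 r = 0.30 (p 0.236; rho 0.19, p 0.467). Ncoa1 had r = 0.33 (p 0.191; rho 0.27, p 0.285), Ncoa2 r = 0.28 (p 0.275; rho 0.26, p 0.318) and Crhr1 r = -0.09 (p 0.732; rho -0.06, p 0.825). Adjusted p-values of the 7 genes ranged from 0.910 to 0.983. The smallest p these permutations can give is 1e-05, and Arl4d, Ddit4 and Net1, at that p, had an adjusted p of 0.0538. That 0 of all genes passed therefore depends on the number of permutations.

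**Figure D3:**
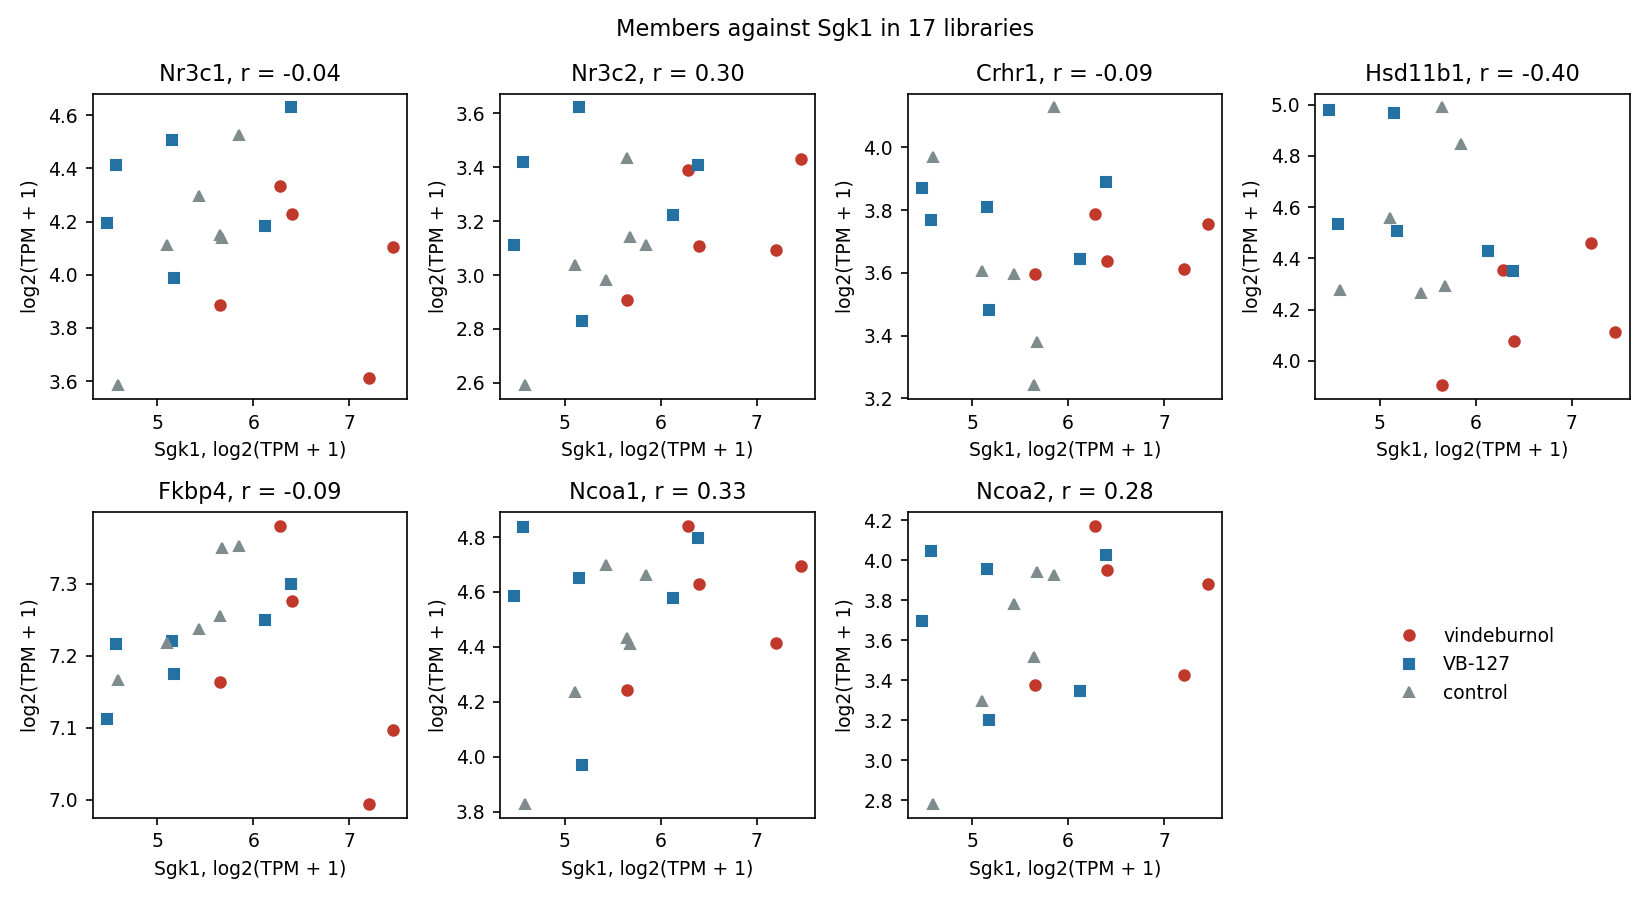
Level of each gene against Sgk1 in the 17 libraries, both as log2(TPM + 1), with Pearson's r above each plot; circles are vindeburnol, squares VB-127 and triangles control libraries. The 2 vindeburnol libraries at the right of each plot, with Sgk1 at 175 and 146 TPM, have the lowest Fkbp4 of all, and r runs from -0.40 for Hsd11b1 to 0.33 for Ncoa1.

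The sign of r with Sgk1 depended on single libraries for Fkbp4 and Nr3c1. Over 17 libraries Fkbp4 had r = -0.09 (p 0.729; rho 0.22, p 0.394). Without the 2 libraries farthest from the Sgk1 median, vindeburnol replicates 1 and 3, r was 0.72 (p 0.00254, adjusted p 0.661). Those libraries had the highest Sgk1 with Fkbp4 at 136 and 126 TPM, the lowest levels of the 17. The other 6 genes had r between -0.36 and 0.40 without these libraries, with Nr3c1 at 0.37 and adjusted p-values of 0.662 to 0.899. Leaving out vindeburnol replicate 3 alone also turned Nr3c1 and Fkbp4 positive, at 0.23 and 0.24.

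Within the 6 control libraries, where no compound was given, r with Sgk1 was 0.93 for Ncoa2, 0.89 for Fkbp4, 0.88 for Nr3c1, 0.87 for Ncoa1, 0.82 for Nr3c2, 0.51 for Hsd11b1 and -0.27 for Crhr1. The first 4 had exact permutation p-values of 0.0111, 0.0125, 0.0208 and 0.0319 (two-sided, n = 6), and adjusted over all genes they were 0.186 to 0.226. The 720 orders of 6 libraries limit how small an exact p can be, and 0 of all genes passed this adjustment. High r values were common in these controls: the median r of all genes was 0.41 and 2946 of them (18.2%) had an exact p under 0.05. Control replicate 4, which had the lowest Sgk1 and the highest Bc1 share, weighed on them, and without it these 5 positive values were 0.78, 0.83, 0.57, 0.56 and 0.43. After rescaling each library without Bc1, r of Fkbp4 in the 6 controls was -0.19 (0.66 without control replicate 4) and those of Ncoa2, Nr3c1, Ncoa1 and Nr3c2 were 0.90, 0.82, 0.79 and 0.69. Within the 6 VB-127 libraries Fkbp4 had r = 0.83 (exact permutation p 0.0361, adjusted p 1.00; 511 genes, 3.16%, had an exact p under 0.05), and the other genes lay between -0.66 (Hsd11b1) and 0.29 (Nr3c1). The 5 vindeburnol libraries were too few for a correlation of their own.

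Other genes that glucocorticoids induce lay closer to Sgk1 in value. All 15 had a positive r, from 0.36 for Dusp1 to 0.88 for Ddit4, with a median of 0.73 against 0.09 for all genes and -0.04 for the receptors and cofactors. An unadjusted permutation p under 0.05 was found for 14 of 15, all but Dusp1, and 0 passed adjustment. The highest were Ddit4, an inhibitor of growth signalling (r = 0.88, p 1e-05; rho 0.87, p 2e-05; adjusted p 0.0538), Nfkbia, the inhibitor of NF-kappa-B (r = 0.84, p 3e-05; rho 0.66, p 0.00459; adjusted p 0.0969) and Fkbp5 (r = 0.81, p 8e-05; rho 0.70, p 0.00255; adjusted p 0.185). Without the 2 libraries farthest from the Sgk1 median the list's median was 0.49, against 0.18 for all genes and 0.37 for the receptors and cofactors, and 6 of 15 had an unadjusted p under 0.05. This list was chosen with earlier results of these data known, so its direction is not independent evidence. Sgk1 was nearest to Arl4d (r = 0.91, p 1e-05; rho 0.88, p 2e-05), Ddit4 and Net1 (r = 0.87, p 1e-05; rho 0.78, p 0.0003), with r of 0.83, 0.85 and 0.74 without those 2 libraries. For r, each of these genes was at the smallest p the permutations can give, where the adjusted p was 0.0538.

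**Figure D4:**
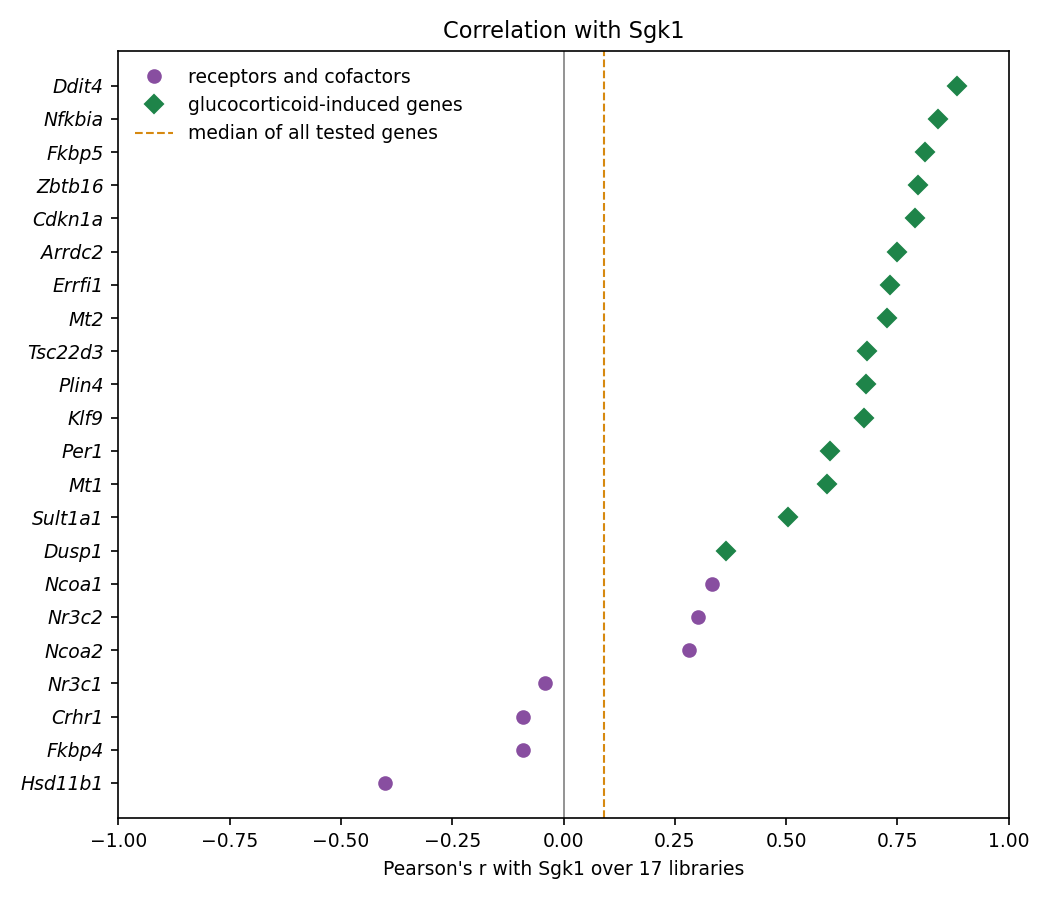
Pearson's r with Sgk1 over 17 libraries for 15 other glucocorticoid-induced genes (diamonds) and the 7 receptors and cofactors (circles), with the median of all tested genes as a dashed line. The induced genes lie from 0.36 to 0.88 and the receptors and cofactors from -0.40 to 0.33, ranges that do not overlap over 17 libraries; without the 2 libraries farthest from the Sgk1 median they are 0.26 to 0.85 and -0.36 to 0.72, which overlap.

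As a list, the induced genes had a median log2 difference from controls of 0.41 after vindeburnol (9 of 16 at an unadjusted p under 0.05, 9 higher, against 8.17% of all genes). After VB-127 the median was -0.03 (4 of 16, 1 higher and 3 lower, against 10.2% of all genes). Between the compounds it was 0.52 (12 of 16, 12 higher, against 3.38% of all genes, 0.891% higher). Sgk1 is among the 16, and 0 were called in limma. After vindeburnol 6 of 16 passed that unadjusted threshold under median-ratio scaling (1397 of all 16153 genes did). Under quantile normalization 5 of 16 passed it (1430 of all genes), and 15 of 16 were higher in value in each. After VB-127 7 were higher and 9 lower in value, and 5 and 11 under median-ratio scaling. Per1, a clock gene with a glucocorticoid response element, and Nfkbia led for vindeburnol against controls, at 0.65 and 0.84 (adjusted p 0.404 and 0.425). The metallothionein genes Mt2 and Mt1 led between the compounds, at 0.55 and 0.38 (adjusted p 1.00 each), and Mt1 and Per1 led for VB-127 against controls, at -0.27 and 0.40 (adjusted p 0.470 each). The receptors and cofactors had medians of 0.02, 0.17 and -0.07 in these comparisons.

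From library to library the receptors and coactivators went with each other and, inversely, with Bc1. Ncoa1 and Ncoa2 had r = 0.90 over 17 libraries (permutation p 2e-05; rho 0.85, p 4e-05; adjusted p 0.000426; r = 0.81 without the 2 farthest libraries). Nr3c1 had r = 0.79 with Ncoa2 (p 0.00012; rho 0.78, p 0.00032) and 0.77 with Ncoa1 (p 0.00044; rho 0.80, p 0.00019), which were 0.68 and 0.69 without the 2 farthest libraries. Nr3c2 had r = 0.78 with Ncoa1 (p 0.00014; rho 0.61, p 0.0109) and 0.74 with Ncoa2 (p 0.00075; rho 0.66, p 0.00494), which were 0.56 and 0.50 without those 2 and no longer passed adjustment. The receptors had r = 0.67 with each other (p 0.0028; rho 0.55, p 0.0224), and 0.46 without those 2, which did not pass either. Crhr1 and Hsd11b1 had r between -0.02 and 0.36 with the other genes of the group. Against Bc1, r was -0.88 for Ncoa1 (p 1e-05; rho -0.83, p 0.00013), -0.87 for Ncoa2 (p 2e-05; rho -0.82, p 0.00016), -0.85 for Nr3c1 (p 4e-05; rho -0.82, p 0.00016) and -0.73 for Nr3c2 (p 0.00086; rho -0.60, p 0.0125). These 4 passed adjustment, as did 6718 of 16152 genes (41.6%), and the median r of all genes was -0.48. Fkbp4, Crhr1 and Hsd11b1 had r of -0.49, -0.33 and -0.12 and did not pass (adjusted p 0.0894, 0.302 and 0.747). With each library taken as its deviation from its group mean, r was -0.86 for Ncoa1, -0.86 for Ncoa2, -0.95 for Nr3c1, -0.71 for Nr3c2 and -0.67 for Fkbp4, and these 5 passed (adjusted p at most 0.0334), as did 5797 of 16152 genes (35.9%). Within the 6 VB-127 libraries these values were -0.94, -0.93, -0.89, -0.92 and -0.46 (exact permutation p 0.00417, 0.00278, 0.0208, 0.0139 and 0.364). Within the 6 control libraries they were -0.85, -0.77, -0.97, -0.59 and -0.66 (exact permutation p 0.0431, 0.0931, 0.0153, 0.186 and 0.147). In either group 0 of the 5 passed adjustment over all genes, and neither did any other gene. The 720 orders of 6 libraries limit how small an exact p can be, so not passing says little here. Values of r like these were common. In the VB-127 libraries the median r of all genes with Bc1 was -0.56, and 4448 of 16152 had an exact permutation p under 0.05. In the control libraries the median was -0.53, and 2789 had such a p. Without the 2 libraries farthest from the Bc1 median, r was -0.80, -0.77, -0.80 and -0.59 for the first 4, and the adjusted p of Nr3c2 was 0.0906. Crhr1 was then at -0.64 (permutation p 0.00983, adjusted p 0.0529), beyond Nr3c2, with Fkbp4 at -0.42 and Hsd11b1 at -0.08.

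By its construction TPM leaves less of the fixed total to every other gene where Bc1 takes more. After each library was rescaled without Bc1, r was -0.76 for Ncoa1, -0.79 for Ncoa2 and -0.71 for Nr3c1, which still passed adjustment (adjusted p 0.0176, 0.0132 and 0.0272). It was -0.51 for Nr3c2 and 0.50 for Fkbp4, which did not (adjusted p 0.160 and 0.177). On that scale 1483 of 16152 genes passed, and the median r of all genes was -0.13. Ncoa1 with Ncoa2 then had r = 0.83, Nr3c1 with Ncoa2 0.63 and the receptors with each other 0.43. The 4 genes that passed adjustment with Bc1 as deposited, over 17 libraries, have long transcripts. Their longest coding transcripts in GENCODE M21 are 6436 bases for Nr3c1, 5916 for Nr3c2, 7329 for Ncoa1 and 8171 for Ncoa2. These are longer than 85.5% to 94.5% of coding genes tested. Those of Hsd11b1, Fkbp4 and Crhr1 are 1623, 2217 and 2460 bases, longer than 16.3% to 34.3%. Of these, Crhr1 had r of -0.64 with Bc1 without the 2 libraries farthest from the Bc1 median. Over the 13495 tested genes with a length, split by length into 4 classes of 3371 to 3378, the median r with Bc1 was, from the shortest to the longest class, -0.23, -0.49, -0.62 and -0.72. Genes are not independent replicates, and the part of transcript length or RNA quality in these values was not tested.

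**Figure D5:**
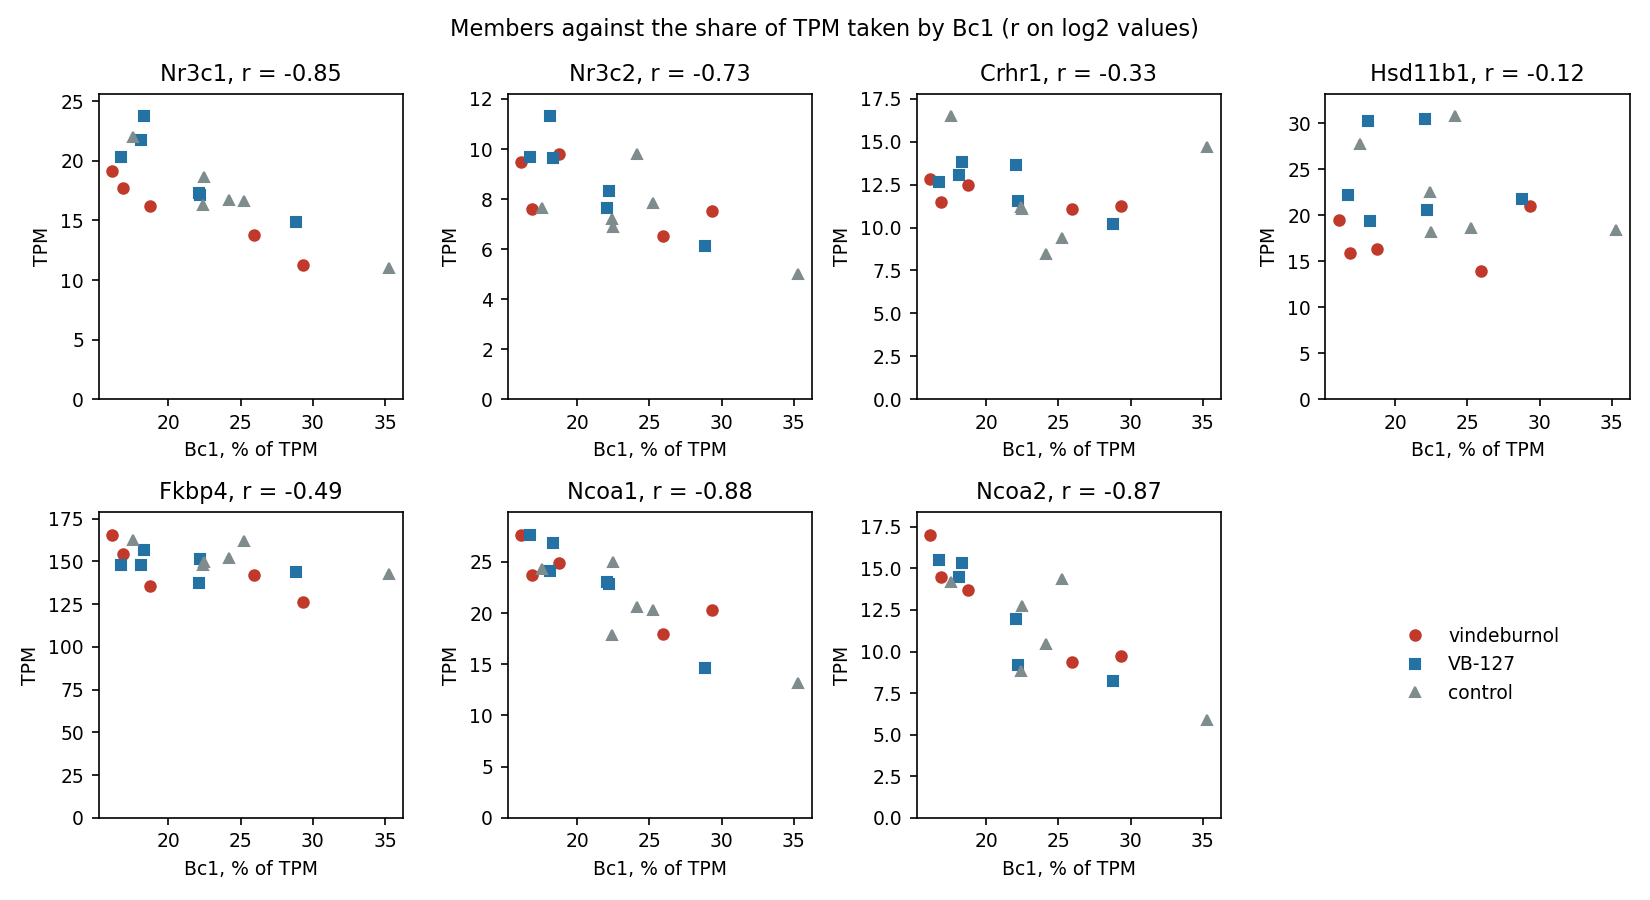
TPM of each gene against the share of the TPM total that Bc1 took in the same library, in percent, with Pearson's r on log2 values above each plot; circles are vindeburnol, squares VB-127 and triangles control libraries. Control replicate 4, with the largest Bc1 share (35.3%), has the lowest Nr3c1, Nr3c2, Ncoa1 and Ncoa2, and r runs from -0.88 for Ncoa1 to -0.12 for Hsd11b1.

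The genes most like the 4 that passed adjustment with Bc1 over 17 libraries had r above 0.9 with them. Nr3c1 was nearest to Igf2r, Itch and Rbpj (r = 0.95, 0.95 and 0.94; rho 0.97, 0.90 and 0.94), Nr3c2 to Hp1bp3, Nsf and Ssx2ip (r = 0.92 each; rho 0.89, 0.89 and 0.91), Ncoa1 to Rlf, Ski and Nptn (r = 0.97, 0.96 and 0.96; rho 0.97, 0.93 and 0.95) and Ncoa2 to Zmiz1, Gpr158 and Atp2a2 (r = 0.98, 0.97 and 0.97; rho 0.95, 0.98 and 0.92). Each r and rho had a permutation p of 1e-05, the smallest these permutations can give, and the adjusted p of r was 0.000644, 0.00286, 0.000261 and 0.00032 in that order of genes. They stood among 5565, 4298, 6207 and 5649 partners that passed adjustment (34.5%, 26.6%, 38.4% and 35% of 16152). Without the 2 libraries farthest from the median of each gene, these r values were 0.88 to 0.95.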

How the data were processed

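Values are TPM per gene and library, as the authors deposited them in 1 table per library. Per the submitters' processing notes STAR, Salmon and the GRCm39 (mm39) genome were used, and versions are not given in the sources used here. Libraries were poly(A)-selected and directional, per the labels' protocols. TPM hides read depth, so no counting interval can be given.

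All 17 libraries were fitted by group with limma 3.58.1 in R 4.3.3 on log2(TPM + 1), with trend and robust moderation, for 16153 genes with at least 1 TPM in at least 5 libraries. Fold differences on this scale understate those of low genes. P-values were adjusted over all genes (Benjamini-Hochberg) and called under 0.05. Correlations used Python 3.11.15 and numpy 2.4.6 with 100000 permutations, or all 720 orders within 6 libraries. The scripts were tested on simulated data.

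Replicate numbers were checked for pairing and did not pair the libraries. The text names every gene of the group and Sgk1, the 2 genes of each pathway list with the smallest p per comparison, and the 3 genes with at least 2 TPM on average and the highest r with each. Some cell type markers are named beside Hsd11b1 and Crhr1. Members and lists were chosen with earlier results of these data known. The motif search, the Bc1 and length comparisons and the removal of the libraries highest in Sgk1 or Dbh were chosen after seeing the data. Alternatives covered scaling, pseudocount, filter, moderation, weights, replicate block and left-out libraries. A combined table of the whole series was not used here. Values of some genes of the lists are not reported here.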

Additional observations from a re-analysis of the deposited data

Results flagged for a closer look

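Ncoa1 in VB-127 replicate 2 was at 14.7 TPM, far below the other VB-127 libraries, which were at 22.9 to 27.6 TPM. Its gap to the nearest library exceeded Dixon's 95% critical value for a group of 6. The test was made in 24 groups, and chance flags about 1 group in 20. The same library had the largest Bc1 share of the VB-127 libraries, 28.8%, and its part in the value was not tested. Without it the Ncoa1 difference of vindeburnol against VB-127 was -0.13 on the log2 scale.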

How the results depend on the processing

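None of the 7 genes was called in any comparison or related to Sgk1 under any alternative run. Of 744 log2 differences (24 as reported), 34 changed sign, and of 203 correlations with Sgk1 (7 as reported), 14 did; the smallest adjusted p were 0.349 and 0.456. Hsd11b1 stayed lower, from -0.45 to -0.26 for vindeburnol against controls (unadjusted p under 0.05 in 22 of 30 alternatives, adjusted p 0.380 to 0.953) and from -0.57 to -0.37 between the compounds (30 of 30, adjusted p 0.431 to 1.00). The unadjusted limma p was also under 0.05 for Fkbp4 against controls in 3 of 30 alternatives after vindeburnol and in 2 of 30 after VB-127. It was so for Nr3c1 between the compounds in 6 of 30 (lowest difference -0.37). For Ncoa1 in VB-127 against controls it was so in 1 of 30. The cause of these passes and of the changes below was not tested. For vindeburnol against controls, Crhr1 was -0.056 with median-ratio scaling, -0.064 with quantile normalization and -0.031 without Bc1; without vindeburnol replicates 1 and 3, Nr3c1 was 0.016 and Fkbp4 0.0099. For VB-127 against controls, Crhr1 was -0.025 and -0.048 and Hsd11b1 -0.028 and -0.029 under the 2 scalings, and Sgk1 was 0.12 without control replicates 1 and 6. Between the compounds, Fkbp4 was 0.0070 with median-ratio scaling and 0.061 without vindeburnol replicates 1 and 3; Ncoa1 was 0.031 and 0.023 under the 2 scalings, 0.0027 without Bc1, 0.031 with the replicate block and 0.0018 without those 2 libraries; Ncoa2 was -0.13 with library weights. Leaving out 1 library gave Nr3c1 -0.21 to 0.0047 and Crhr1 -0.058 to 0.12 (vindeburnol against controls), Sgk1 -0.28 to 0.10 (VB-127 against controls), and Fkbp4 -0.080 to 0.017, Ncoa1 -0.13 to 0.075 and Ncoa2 -0.054 to 0.15 (between the compounds). The r with Sgk1 of Fkbp4 was 0.22 by rank, 0.12 as deviations from group means, 0.23 with the replicate block and 0.72 without the 2 farthest libraries; that of Nr3c1 was 0.012, 0.27, 0.41 and 0.37. Leaving out 1 library it was -0.15 to 0.023 for Crhr1, -0.22 to 0.24 for Fkbp4 and -0.27 to 0.23 for Nr3c1. Over all genes, limma called 1 for vindeburnol against controls without Bc1, with library weights and without trend and robust moderation. For VB-127 against controls it called 0 with a pseudocount of 0.1, no filter, a filter of 5 TPM or the replicate block, 3 with library weights, 2 with 2 groups only or without control replicates 1 and 6, and 0 to 1 leaving out 1 library. With a filter of 5 TPM 3 genes were related to Sgk1, and 0 to 4 leaving out 1 library (4 without VB-127 replicate 3, 4 without control replicate 2). These counts depend on the number of permutations, which cannot give a p below 1e-05, and on the number of genes adjusted over. Same-numbered libraries had deviations with r from -0.20 to 0.11, and 1 of 16 was closest to its own number. The replicate block changed no other call.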
